A study of Glycine max with 4 samples.

Results

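The effect of salt in melatonin-treated soybean seedlings was examined by setting the RNA-seq library of leaves given salt with melatonin (NaCl+Mt) against that of leaves given melatonin alone (Mt). These are 2 of the 4 libraries of the series, and all 55787 transcript models of 46367 loci in the deposited table were used. Seedlings of NaCl+Mt received 1% NaCl together with 100 µM melatonin, and those of Mt received the same dose of melatonin without added salt. The other libraries were NaCl, which received 1% NaCl alone, and H2O, which received water alone, and they are given beside the comparison as the salt effect without melatonin (NaCl:H2O). All 4 came from leaves of the cultivar SuiNong 28, and the treatment label gives an age of 3 weeks, while the study's results text names a younger age. Each condition had 1 library, and neither the number of plants behind a library nor the hours of treatment is given in the sources used here. No difference below could therefore be set against replicate error, no p-value was computed, and each standard error (SE) covers the counting of reads in the 2 libraries only.

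Counted reads were 36945028 in NaCl+Mt and 23479688 in Mt, against 28868062 in NaCl and 22908979 in H2O. At these depths the floor of 3 reads corresponded, for a transcript of 1000 bases, to an RPKM (the read count scaled to transcript length and library depth) of 0.064 in NaCl+Mt and 0.103 in Mt. The small subunit of Rubisco, *rbcS* (Glyma13g07610), which marks green leaf tissue, was the seventh most abundant transcript in NaCl+Mt and the most abundant in Mt. The Mt library stood apart from the other 3 libraries. Between it and each of the others, 12389 (NaCl+Mt:Mt), 14099 (Mt:H2O) and 12627 (Mt:NaCl) transcripts differed at least 2-fold, whereas the 3 comparisons without it gave 3274 (NaCl+Mt:H2O), 5489 (NaCl+Mt:NaCl) and 7193 (NaCl:H2O, 7.31% of tested transcripts higher and 11.4% lower). Every difference in NaCl+Mt:Mt rests on that single Mt library, and there is no second one to replace it, so its part in the results was not tested.

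Salt in soil lowers water uptake and brings sodium and chloride ions into the shoot, and plants exposed to it commonly slow cell division and expansion, close stomata, reduce photosynthesis and make protective solutes such as proline. Melatonin is an indoleamine made from tryptophan, and its last step of synthesis is catalysed by N-acetylserotonin *O*-methyltransferase (*ASMT*). In plants it is known as an antioxidant and as a compound that can change growth when supplied from outside.

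In NaCl+Mt:Mt, lower transcripts outnumbered higher ones. A transcript was called at a fold of at least 2 on the scale of RPKM + 0.1, provided that NaCl+Mt or Mt reached an RPKM of 1. Among the 41573 transcripts tested, 8062 (19.4%) were lower in NaCl+Mt, 4327 (10.4%) were higher and 29184 were neither. The median log2 of NaCl+Mt over Mt was -0.12, with quartiles at -0.72 and 0.40. The excess of lower transcripts grew with the size of the change. At a fold of at least 4, 4230 were lower and 1449 higher, at 16 the numbers were 1491 and 350, and at 64 they were 280 and 49.

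**Figure D1:**
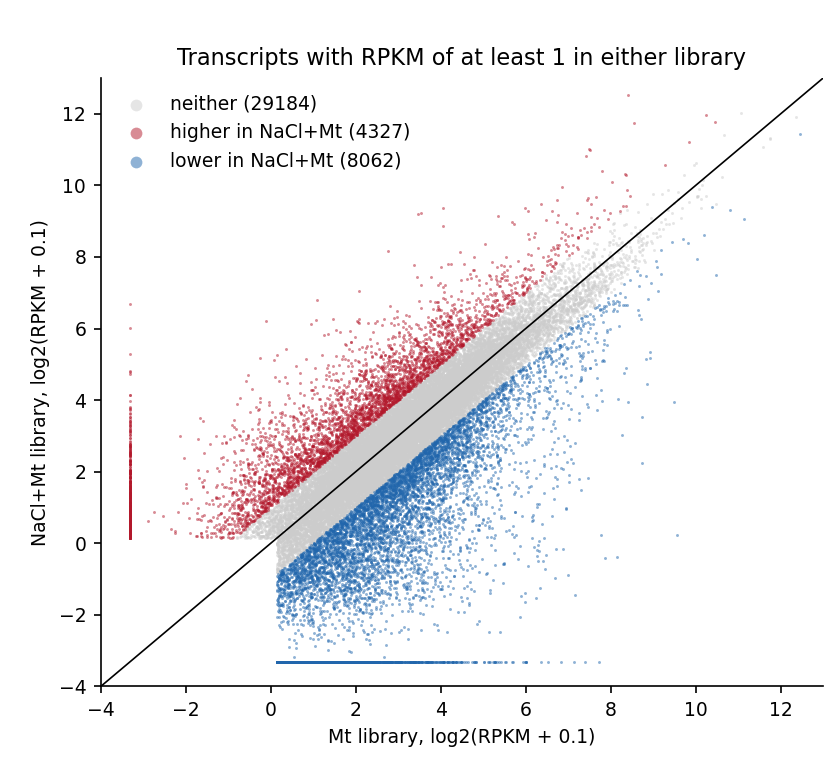
Each point is a transcript that reached an RPKM of 1 in NaCl+Mt or Mt, plotted by its log2(RPKM + 0.1) in NaCl+Mt (y axis) and Mt (x axis), with the line of equality. The 8062 lower transcripts spread further from the line than the 4327 higher ones, and the straight rows of points at the left and bottom edges are transcripts listed at 0 in one library.

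Most called transcripts had their extreme value of the 4 libraries in Mt. Part of this follows from the choice, because the calls themselves compared Mt with NaCl+Mt, and the share to be met by that choice alone was not computed. Those lower in NaCl+Mt had a median of 1.08 RPKM in NaCl+Mt and 5.97 RPKM in Mt, beside 1.1 in NaCl and 1.05 in H2O, and in 96.7% of them Mt held the highest of the 4 values. Those higher in NaCl+Mt had a median of 10.9 RPKM in NaCl+Mt and 3.18 RPKM in Mt, beside 6.69 in NaCl and 11.3 in H2O, and Mt held the lowest of the 4 values in 82.9%. In both sets the median in NaCl+Mt was close to that in H2O.

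The direction of the calls differed with expression level among transcripts with a mean of more than 3 RPKM. Those with a mean of 3 RPKM or less were left out of the bins by level. These bins held 15457, 11423, 4213 and 1112 of the 41573 tested transcripts. Among transcripts with a mean RPKM of 3 to 10 over the 2 libraries, 17.5% were lower and 8.44% higher in NaCl+Mt. Above a mean of 100 RPKM the order was reversed, with 11.7% lower and 15.9% higher of 1112 transcripts. Length mattered for the higher calls, which made up 12.8% of the shortest of 5 bins of transcripts (114 to 600 bases) and 6.26% of the longest (1746 bases or more), whereas the share of lower calls stayed between 18.5% and 20.4% in all 5 bins. By the chromosome number in the locus names, the share of lower calls ran between 17.4% on chromosome 20 and 21.4% on chromosome 17, and that of higher calls between 9.19% on chromosome 5 and 11.6% on chromosome 18. Of 6050 loci with several tested transcripts, none was called in 4487, every one was lower in 573 and higher in 411, and opposite calls occurred in 4. Transcripts of a locus can overlap, so their agreement is not independent evidence.

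**Figure D2:**
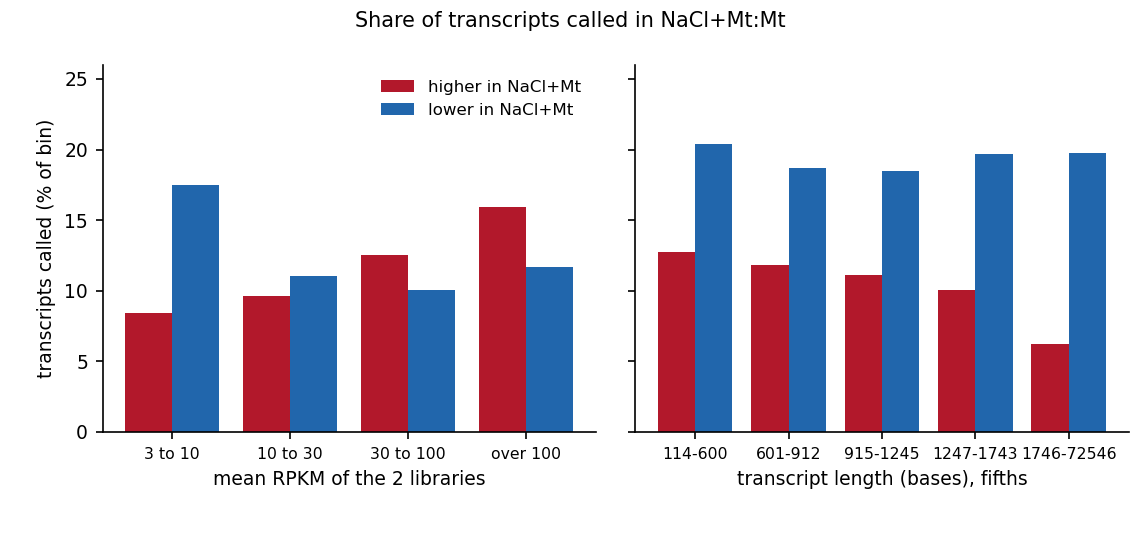
Bars give the percentage of tested transcripts called higher (left bar) or lower (right bar) in NaCl+Mt than in Mt, by the mean RPKM of the 2 libraries and by 5 bins of transcript length. Transcripts with a mean of 3 RPKM or less are left out of the bins by level. Lower calls exceed higher ones in every bin shown except the 2 with a mean of more than 30 RPKM.

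The biology was followed in the pathway table of the study, which names 211 loci in 16 groups. The study chose these loci on the same libraries, so their direction is a description and not independent evidence. Each locus was represented by the transcript with its highest mean RPKM over the 4 libraries. Over all loci, 21.7% of 32944 were lower and 10.5% higher in NaCl+Mt than in Mt, with a median log2 of -0.16. Of the 211 loci, 203 could be called, and 163 were lower, 17 higher and 23 neither, with a median log2 of -2.34 over all 211.

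**Figure D3:**
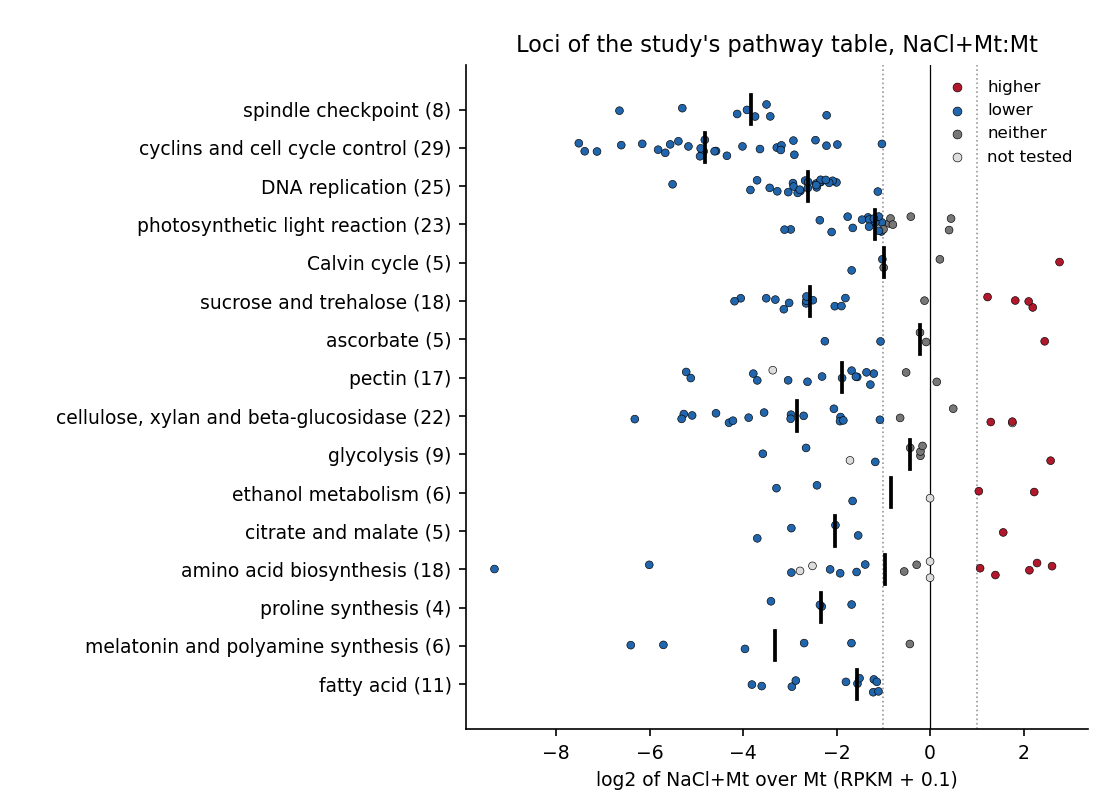
Each point is a locus of the study's pathway table at its log2 of NaCl+Mt over Mt, with the number of loci of each group in brackets, a black bar at the group's median and dotted lines at a fold of 2. The groups of the cell cycle and DNA replication lie wholly to the left, and 17 called loci of 8 other groups lie to the right of the upper line.

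Genes of dividing cells were lower in NaCl+Mt. The 3 groups of spindle checkpoint, cyclins with cell cycle control, and DNA replication hold 62 loci, all of which were called lower, at a median log2 of -3.35 (-3.16 from the counts). The number called was 60 under TMM scaling and 61 under median-of-ratios scaling, and a filter of RPKM 5 left 32, all lower. Their summed level was 51.4 RPKM in NaCl+Mt and 460.8 RPKM in Mt, beside 53.1 in NaCl and 39.4 in H2O. In NaCl+Mt 19 of the 62 were listed at 0, in Mt none, in NaCl 15 and in H2O 24. In whole leaves, fewer dividing cells and less of these RNAs per cell cannot be told apart.

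Among the B-type cyclins, which drive entry into mitosis, all 9 *CYCB* loci were lower, at log2 values from the counts of -4.35 to -6.48. The most abundant, Glyma14g04160, had 46 reads (0.743 RPKM) in NaCl+Mt and 968 reads (25.2 RPKM) in Mt, a log2 of -4.91 ± 0.22 (SE). *CYCB* Glyma03g27910 followed with 52 and 863 reads, or 0.813 and 21.7 RPKM, a log2 of -4.58 ± 0.21. *CYCB* Glyma19g30720 was listed at an RPKM of 0 in NaCl+Mt although 7 reads were counted there, against 751 in Mt, and the counts give a log2 of -6.48 ± 0.55. The 9 A-type cyclins (*CYCA*), which act in DNA synthesis and the approach to mitosis, were lower too. *CYCA* Glyma04g42540 had no read in NaCl+Mt and 274 in Mt, which makes it at least 147-fold lower. The inhibitory kinase *WEE*, which delays mitosis, was lower like the cyclins, at a log2 of -3.28 ± 0.31. The smallest change in the group was that of *GRF* Glyma13g34580, listed as a general regulatory factor, with 14.2 RPKM in NaCl+Mt and 29.1 RPKM in Mt (log2 -1.03 ± 0.09), a call that was lost at -0.88 under TMM scaling.

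The spindle checkpoint holds back chromosome separation until all chromosomes are attached to the spindle, and *BUBR1*, *BUB3*, *MAD2* and the kinase *TTK* are its core components. *BUBR1* Glyma07g20070 had 4 reads in NaCl+Mt and 333 in Mt, and its recomputed log2 was -5.85 ± 0.73. *BUB3* Glyma10g40440, the most abundant of the group, had 2.84 RPKM in NaCl+Mt and 13.5 RPKM in Mt (log2 -2.21 ± 0.14). Both *MAD2* loci rested on few reads, 4 and 10 in NaCl+Mt against 58 and 84 in Mt, and *TTK* had 19 against 194. All 8 loci of the checkpoint pointed the same way. Both loci of separase (*ESP1*), the protease that cuts the links between sister chromosomes, were at an RPKM of 0 in NaCl+Mt, with 16 and 38 reads against 204 and 295 in Mt.

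The 25 DNA replication loci had a median log2 of -2.62, beside -4.82 for the 29 loci of cyclins and cell cycle control, and the ranges of these groups overlapped. From the counts the medians were -2.62 and -4.35, as 13 of the cyclin and cell cycle loci were listed at 0 in NaCl+Mt. The 12 loci listed together as *MCM2* to *MCM7*, which encode the helicase that opens DNA at replication origins, lay between -2.08 and -3.70 with a median of -2.64. The most abundant of them, Glyma13g22420, had 248 reads (2.41 RPKM) in NaCl+Mt and 806 reads (12.6 RPKM) in Mt, beside 2.02 RPKM in NaCl and 2.47 RPKM in H2O. The remaining replication loci encode origin recognition, primase, polymerase and single-strand binding subunits. The single-strand binding subunit *RFA1* Glyma17g08660 had the largest fall, with 10 reads in NaCl+Mt and 241 in Mt, and *RFA3* Glyma10g42530 the smallest, with 1.90 RPKM in NaCl+Mt and 4.24 RPKM in Mt (log2 -1.12 ± 0.30), which was -0.97 and not called under TMM scaling.

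Photosynthesis genes were lower by a smaller factor, and their summed level stayed above that of H2O. In the light reaction, 16 of 23 loci were lower in NaCl+Mt, 7 were neither and none was higher, with a median log2 of -1.17 and a range of -3.11 to 0.45. Their summed level was 2277 RPKM in NaCl+Mt and 4787 RPKM in Mt, beside 2559 in NaCl and 959 in H2O. Many of these loci lay close to the limit of the call. *PsaF* Glyma05g00620, the plastocyanin-docking subunit of photosystem I, had 709 RPKM in NaCl+Mt and 1414 RPKM in Mt, and at a log2 of -0.996 ± 0.01 it just missed it. *PsbP* Glyma08g41660, of the oxygen-evolving complex, had 182 and 410 RPKM (log2 -1.17 ± 0.02). *PsaH* Glyma13g43370, where light-harvesting proteins can dock, had 89.9 RPKM in NaCl+Mt and 283 RPKM in Mt (log2 -1.65 ± 0.04). *PsaO* Glyma12g09730 was among the loci not called, at -0.41.

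The largest fall in the light reaction was listed for *PsaA* Glyma04g22110, with 17 reads in NaCl+Mt and 100 in Mt. *PsaA*, *PsbE*, *PsbZ* and *ATPF1A* are proteins whose genes normally sit in the plastid genome, so reads of a nuclear copy and of the plastid gene may not be separable at these loci, and all 4 were low, at 0.93 to 4.06 RPKM in NaCl+Mt and 6.55 to 17.8 RPKM in Mt. The 5 ferredoxin (*PetF*) loci, which carry electrons from photosystem I, did not move together. Glyma12g29100 had 11.3 RPKM in NaCl+Mt and 90.2 RPKM in Mt (log2 -2.98 ± 0.10), and its neighbour Glyma12g29090 had 44.5 and 112 RPKM (log2 -1.33 ± 0.06). Glyma10g42540 and Glyma20g24500 were not called, at 0.45 ± 0.13 and 0.41 ± 0.10, and neither was Glyma11g00800, at -0.88 ± 0.36.

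Of the 5 Calvin cycle loci, those of *rbcS* and *TIM* (triosephosphate isomerase) were lower, *GAPC1* was higher, and *PGK* and *GAPCP-2* were neither. *rbcS*, the small subunit of the enzyme that fixes CO2, had 2781 RPKM in NaCl+Mt and 5644 RPKM in Mt (70028 and 88163 reads), beside 3530 in NaCl and 1019 in H2O, a log2 of -1.02 ± 0.01. Its call did not hold under other scalings of the libraries. *PGK* (phosphoglycerate kinase) had 97.9 and 195 RPKM, a log2 of -0.99 that missed the call by a small margin. *GAPC1* Glyma11g37360, a glyceraldehyde-3-phosphate dehydrogenase of a type known from the cytosol, went the other way, with 46.4 RPKM in NaCl+Mt and 6.72 RPKM in Mt (log2 2.77 ± 0.11), beside 3.18 in NaCl and 51.9 in H2O.

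**Figure D4:**
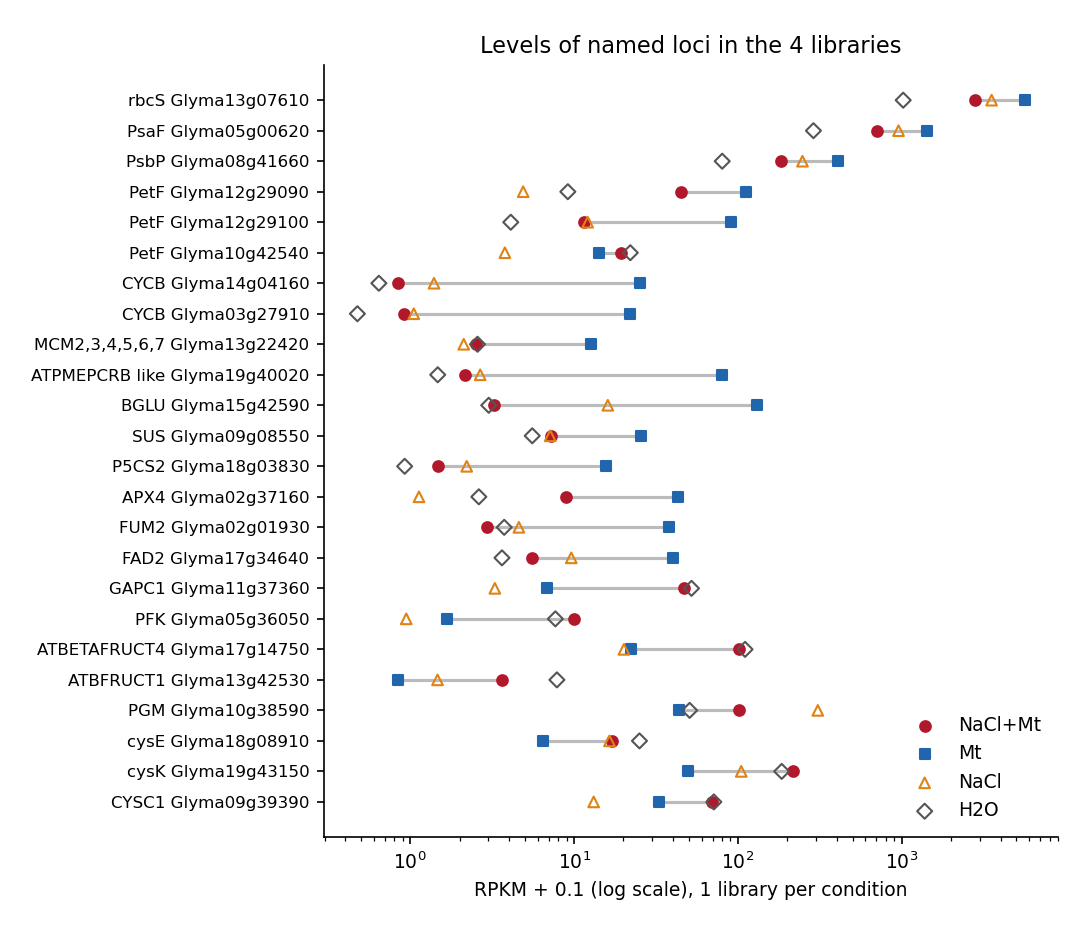
RPKM + 0.1 on a log axis of 24 named loci in each of the 4 libraries, with a grey line joining NaCl+Mt to Mt. Mt lies to the right of the other libraries in most of the upper loci, including *CYCB* and *BGLU*, but not in *PetF* Glyma10g42540. In the lower loci, including *PFK* and *cysK*, Mt lies to the left of NaCl+Mt.

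In sucrose and trehalose metabolism, breakdown by sucrose synthase and by invertase stood on opposite sides. All 6 loci of sucrose synthase (*SUS*), which cleaves sucrose reversibly, were lower in NaCl+Mt, at -1.81 to -3.50 from the counts, and the most abundant, Glyma09g08550, had 7.17 RPKM in NaCl+Mt and 25.4 RPKM in Mt (log2 -1.81 ± 0.06). Of the 4 invertase loci, 3 were higher. The vacuolar-type *ATBETAFRUCT4* Glyma17g14750 had 102 RPKM in NaCl+Mt and 22.1 RPKM in Mt (9233 and 1245 reads, log2 2.20 ± 0.04), beside 20.04 in NaCl and 110 in H2O. Both cell-wall-type *ATBFRUCT1* loci were higher at low levels, 3.53 and 2.01 RPKM in NaCl+Mt against 0.741 and 0.497 RPKM in Mt. The exception was *ATBETAFRUCT4* Glyma01g41990, which had 13 reads in NaCl+Mt and 98 in Mt and was called lower. Phosphoglucomutase (*PGM* Glyma10g38590), which interconverts glucose phosphates, was the fourth higher locus, with 102 RPKM in NaCl+Mt and 43.3 RPKM in Mt, beside 307 in NaCl and 50.6 in H2O. Both trehalose-phosphate phosphatase loci (*otsB*), 3 of 4 fructokinases (*scrK*) and hexokinase (*HK*) were lower.

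Cell wall genes were mostly lower. All 7 galacturonosyltransferases (*GAUT*), which build pectin, were lower at -1.20 to -3.04, and of the 17 pectin loci 14 were lower, 2 neither and none higher, and 1 was too low to be tested. The pectin methylesterase *ATPMEPCRB*-like Glyma19g40020 had 2.05 RPKM in NaCl+Mt and 79.9 RPKM in Mt (163 and 3941 reads), a log2 of -5.22 ± 0.12, and its levels in NaCl and H2O were 2.57 and 1.37. In the group of cellulose, xylan and beta-glucosidase, 17 of 22 loci were lower, 2 were higher, 2 were neither and 1 was too low to be tested, at a median log2 of -2.84. The beta-glucosidase *BGLU* Glyma15g42590 had 3.16 RPKM in NaCl+Mt and 130 RPKM in Mt (181 and 4611 reads, log2 -5.32 ± 0.11), beside 16.0 in NaCl and 2.91 in H2O. The cellulose synthase-like *CSLD5* Glyma03g37550 had 21 reads in NaCl+Mt and 754 in Mt, a recomputed log2 of -5.08 ± 0.32. The 2 higher loci were both *BGLU*, of which Glyma14g39230 had 5.32 RPKM in NaCl+Mt and 1.499 RPKM in Mt, while 9 of the 12 *BGLU* loci were lower.

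In glycolysis, 1 of 9 loci was higher, 3 were lower, 4 were neither and 1 was too low to be tested. Phosphofructokinase (*PFK* Glyma05g36050), which commits hexose to the pathway, had 9.94 RPKM in NaCl+Mt and 1.58 RPKM in Mt (639 and 63 reads, log2 2.58 ± 0.19), beside 0.846 in NaCl and 7.59 in H2O. Both aldolase loci (*ALDO*), the most abundant of the group, were close to equal in the 2 libraries, at -0.21 each. Both loci of aldose epimerase (*ALDEP*), which interconverts sugar anomers, were lower at -2.65 ± 0.07 and -3.58 ± 0.16. Alcohol dehydrogenase (*ADH1* Glyma04g41990) was higher at 8.85 RPKM in NaCl+Mt against 4.24 RPKM in Mt (log2 1.04 ± 0.14, or 0.91 and not called with a pseudocount of 1), whereas the aldehyde dehydrogenases *ALDH3F* and *ALDH3H* were lower at -3.29 and -2.42. The 2 *GroES-like* loci had opposite signs, 2.23 ± 0.14 for Glyma01g28850 and -1.66 ± 0.19 for Glyma07g18130. So did the 2 *ACLA* loci, subunits of the ATP-citrate lyase that makes acetyl-CoA, at 1.57 ± 0.17 for Glyma03g38810 and -2.02 ± 0.08 for Glyma15g42140. Fumarase (*FUM2* Glyma02g01930) had 2.82 RPKM in NaCl+Mt and 37.8 RPKM in Mt (log2 -3.70 ± 0.11).

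Of the 18 loci of amino acid synthesis, 5 were higher, 7 lower and 2 neither, and 4 were too low to be tested. All 4 listed loci of cysteine synthesis were higher in NaCl+Mt. Serine acetyltransferase (*cysE* Glyma18g08910) had 17.03 RPKM in NaCl+Mt and 6.40 RPKM in Mt (log2 1.40 ± 0.11). The 2 loci of cysteine synthase (*cysK*), which joins sulphide to acetylserine, had 216 and 25.1 RPKM in NaCl+Mt and 49.4 and 5.06 RPKM in Mt, at 2.13 ± 0.04 and 2.29 ± 0.13. *CYSC1* Glyma09g39390, named for the mitochondrial cysteine synthase that also detoxifies cyanide, had 69.2 RPKM in NaCl+Mt and 32.9 RPKM in Mt (log2 1.07 ± 0.05). In H2O these 4 loci had 25.0, 185, 21.6 and 71.1 RPKM, and in NaCl they had 16.3, 105, 15.2 and 13.1 RPKM. The NaCl+Mt values lay nearer to those of H2O than to those of Mt, and that of *cysE* lay nearest to its value in NaCl. The branched-chain aminotransferase *BcaT* Glyma07g30500 was the fifth higher locus, at 9.66 RPKM in NaCl+Mt against 1.499 RPKM in Mt. In the synthesis of aromatic amino acids, *aroK* (shikimate kinase) was lower at -1.92, *trpE* (anthranilate synthase) Glyma18g03270 at -2.97 and *ADT* (arogenate dehydratase) at -2.14, while *trpB* (tryptophan synthase) was neither, at -0.55. Of the 2 *GLT1* loci (glutamate synthase), Glyma06g13280 was lower at -1.57 and Glyma04g41540 was neither, at -0.29. Serine hydroxymethyltransferase (*SHMT* Glyma09g33480) had the largest fall of all 211 loci, with 6 reads in NaCl+Mt and 2885 in Mt, a recomputed log2 of -8.45 ± 0.59, while its second locus Glyma05g28490 had 25.0 and 65.5 RPKM (log2 -1.39 ± 0.05).

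Loci of proline synthesis, which plants commonly raise under salt, were lower in NaCl+Mt than in Mt. All 3 loci of *P5CS2*, the enzyme of the first step, and *proC*, that of the last, were lower, at a median of -2.34 over the 4. *P5CS2* Glyma18g03830 had 1.37 RPKM in NaCl+Mt and 15.5 RPKM in Mt (139 and 973 reads, log2 -3.40 ± 0.13), beside 2.11 in NaCl and 0.825 in H2O. In NaCl:H2O, 2 of the 4 loci were higher and none lower. Of the 5 ascorbate loci, 2 were lower, 1 was higher and 2 were neither. The call of the lower *UGT* Glyma19g03000 (log2 -1.06) was lost under TMM and median-of-ratios scaling and with a pseudocount of 1, and the higher *UGT* Glyma03g03840 was too low to be tested with a filter of RPKM 5. Ascorbate peroxidase (*APX4* Glyma02g37160) had 8.89 RPKM in NaCl+Mt and 42.7 RPKM in Mt (log2 -2.25 ± 0.08), beside 1.03 in NaCl and 2.52 in H2O, and *VTC4*, which acts in ascorbate synthesis, was near equal at -0.08 ± 0.24.

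Both *ASMT* loci were low in NaCl+Mt and in both libraries without melatonin. *ASMT* Glyma06g44010 had 10 reads (0.200 RPKM) in NaCl+Mt and 786 reads (25.3 RPKM) in Mt (log2 -6.40 ± 0.46), and it was listed at 0 in NaCl and H2O. *ASMT* Glyma18g50470 had 2 reads in NaCl+Mt and 159 in Mt and was at least 85.4-fold lower. All 3 loci of spermidine synthase (*SPDS*), which makes polyamines, were lower at -1.68 to -3.96, and *speB* (agmatinase) was neither, at -0.43.

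All 11 fatty acid loci were called lower, at a median of -1.55, but many lay near the limit of the call. With a pseudocount of 1 the count was 7, with TMM scaling 9, and with a filter of RPKM 5 it was 5, as the other 6 were then too low to be tested. They include the desaturases *FAD8* (4 loci) and *FAD2*, the condensing enzymes *KCS6* and *KCS11* of very-long-chain acids for waxes, and *KAS I* of plastid chain elongation. *FAD2* Glyma17g34640 had 5.399 RPKM in NaCl+Mt and 40.2 RPKM in Mt (log2 -2.87 ± 0.09). *FAD8* Glyma03g07570, the most abundant, had 21.5 RPKM in NaCl+Mt and 47.4 RPKM in Mt (log2 -1.14 ± 0.05), and at -0.99 it was not called under TMM scaling.

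The salt effect was then read beside its counterpart without melatonin, NaCl:H2O, which shares no library with NaCl+Mt:Mt. In NaCl:H2O, 12.3% of 30032 tested loci were lower and 7.61% higher. Of the 3451 loci higher in NaCl+Mt:Mt, 1346 (39.0%) were lower in NaCl:H2O, 223 (6.46%) were higher and 1785 (51.7%) were neither. Of the 7147 loci lower in NaCl+Mt:Mt, 781 (10.9%) were higher in NaCl:H2O and 544 (7.61%) were lower. A further 2722 (38.1%) were neither there, and 3100 (43.4%) were too low there to be tested. These percentages are of all loci of each set, tested in NaCl:H2O or not, so they cannot be set against the shares of tested loci given first. Seen from the other side, 36.5% of the loci lower in NaCl:H2O were higher in NaCl+Mt:Mt, and 34.2% of those higher in NaCl:H2O were lower in NaCl+Mt:Mt. Calls in opposite directions were thus more numerous than calls in the same direction. However, 49.9% of the loci higher in NaCl:H2O and 42.3% of those lower there were neither in NaCl+Mt:Mt. No test of the difference between the 2 salt effects could be made with 1 library per condition.

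Within the pathway table, opposite calls were also more numerous than calls in the same direction. The study chose these loci on the same libraries, so this is a description and not independent evidence. Of the 211 loci, 36 were lower in NaCl+Mt:Mt and higher in NaCl:H2O, and 10 were higher in NaCl+Mt:Mt and lower in NaCl:H2O. Another 6 were lower in both and 2 were higher in both. Of the other loci lower in NaCl+Mt:Mt, 48 were neither in NaCl:H2O and 73 were too low there to be tested. A further 5 loci higher in NaCl+Mt:Mt were neither in NaCl:H2O. The 2 higher in both were *PGM* and *ADH1* Glyma04g41990, and *ADH1* was not called in NaCl+Mt:Mt with a pseudocount of 1. The light reaction had 16 lower and no higher locus in NaCl+Mt:Mt, against 2 lower and 13 higher in NaCl:H2O, at medians of -1.17 and 1.20. Loci with the reverse pattern included *GAPC1*, at 2.77 in NaCl+Mt:Mt and -3.99 in NaCl:H2O, *PFK*, at 2.58 and -3.02, and *ATBETAFRUCT4* Glyma17g14750, at 2.20 and -2.46. For these 3 loci NaCl+Mt and H2O held the 2 highest of the 4 values, and NaCl and Mt the 2 lowest. Loci of dividing cells could seldom be compared, since 21 of the 62 were tested in NaCl:H2O, where 5 were higher, 16 neither and none lower.

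**Figure D5:**
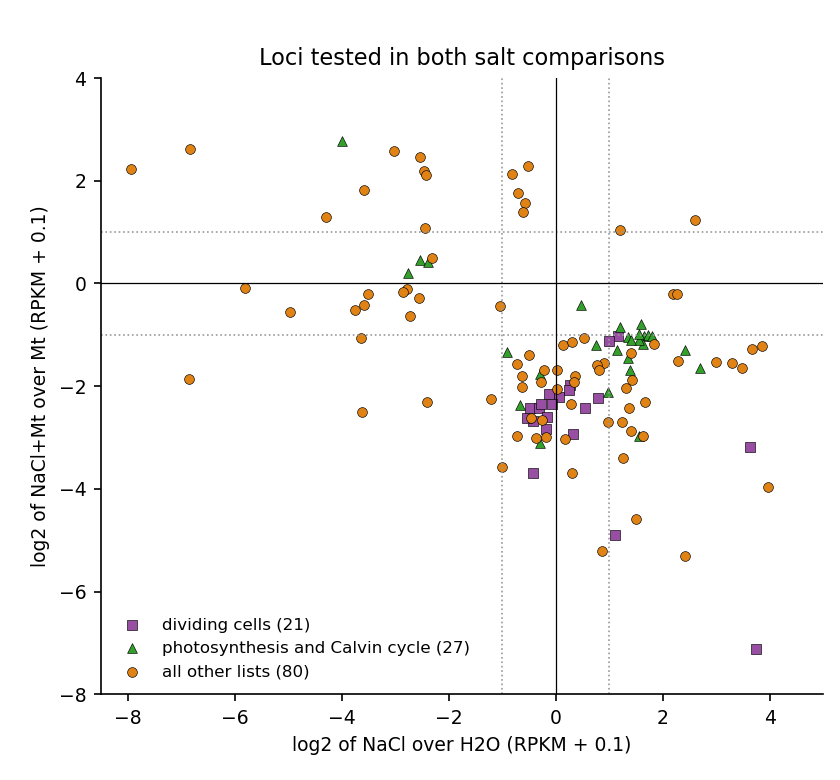
Each of the 128 loci of the pathway table that were tested in both comparisons is placed by its log2 in NaCl+Mt:Mt (y axis) and in NaCl:H2O (x axis), with dotted lines at a fold of 2. Photosynthesis loci gather at the lower right, and most loci above the upper line lie to the left.

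The study also lists 28 transcripts as raised in every treatment, and these were lower or not called in NaCl+Mt:Mt with 1 exception. Because the list was chosen on Mt:H2O and NaCl:H2O among others, a high value in Mt was part of the choice. Of the 28, 26 were tested, 15 were lower, 10 neither and 1 higher, at a median log2 of -1.21 over all 28. Over all tested transcripts, 19.4% were lower and 10.4% higher. The dehydration-responsive *RD22* (Glyma04g35130.1) had 638 RPKM in NaCl+Mt and 1805 RPKM in Mt (log2 -1.50), beside 2744 in NaCl and 67.8 in H2O. A putative acid phosphatase (Glyma07g01730.1) had 530 RPKM in NaCl+Mt and 2252 RPKM in Mt (log2 -2.09), and the arabinogalactan protein *AGP17* (Glyma01g39810.1) had 19.1 and 102 RPKM (log2 -2.42). *LHCB4.3* (Glyma11g35130.1), an antenna protein of photosystem II, was neither, at 53.7 RPKM in NaCl+Mt and 45.5 RPKM in Mt. The exception was cycloartenol synthase (*CAS1*, Glyma20g33450.1), which forms the precursor of plant sterols, at 4.88 RPKM in NaCl+Mt and 1.26 RPKM in Mt. Levels in NaCl+Mt were above those in H2O in all of the transcripts named here, as the list requires.

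Ranked on the scale of RPKM + 1, which gives less weight to values near 0, the largest changes of the whole table fell on loci that the sources used here do not annotate. Glyma10g13450.1 had 42 reads in NaCl+Mt and 18611 in Mt, or 1.06 and 759 RPKM, a log2 of -9.35 ± 0.22, with no read in NaCl and 1 in H2O. Glyma03g32830.1 had 2 reads in NaCl+Mt and 2140 in Mt and was at least 1150-fold lower. Glyma18g44250.1 was the largest rise on that scale, with 7224 reads in NaCl+Mt and 10 in Mt, where its RPKM was listed at 0, and the counts give a log2 of 8.29 ± 0.46. The next, Glyma13g07590.1, shows the limit of the listed zeros. Its RPKM was 65.0 in NaCl+Mt and 0 in Mt although 2643 and 3322 reads were counted, and from the counts it was lower, at -1.02. Among called transcripts, 298 of the 4327 higher ones were listed at 0 in Mt with more than 3 reads, and 245 of these were still called from the counts. Of the 8062 lower ones, 736 were listed so in NaCl+Mt, and 688 were still called.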

How the data were processed

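RNA was extracted from leaves and sequenced by the authors on Illumina HiSeq. Reads were trimmed and mapped to the soybean genome with BWA 0.7.4 per the submitters' notes. For each transcript the authors deposited a read count and an RPKM per library, and the build is not given in the sources used here. Some RPKM values are listed at 0 despite reads, by a rule not stated, so log2 values were also recomputed from the deposited counts. Fold changes used RPKM + 0.1, and calls needed a fold of at least 2 and an RPKM of at least 1 in either library. SEs came from counts. With 1 library per condition no p-value was computed. A fold against 3 reads or fewer is a lower bound, computed at 3 reads per library. Scripts ran in Python 3.11.15, and edgeR 4.0.16 in R 4.3.3 gave TMM factors only.

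Gene symbols and groups are those of the study's supplementary tables. Members, lists and alternatives were chosen with earlier results of these data known. In each group, the loci named were the most abundant, those with the largest rise and fall, and further members of the families described. Of the largest changes outside the lists, 2 each way are named. Lists by gene product could not be made, because the RefSeq table matched none of the locus names (0 loci). Alternatives were other pseudocounts (0.01 and 1), filters, a fold of 4, other scalings, recomputed RPKM and other choices of transcript.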

Additional observations from a re-analysis of the deposited data

Results flagged for a closer look

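The following values had opposite signs in the 2 salt comparisons, and in each case the difference was not tested, since each condition has 1 library. Lower in NaCl+Mt:Mt and higher in NaCl:H2O were *CYCB* Glyma14g04160 (log2 -4.91 and 1.12), *PetF* Glyma12g29100 (-2.98 and 1.56), *rbcS* (-1.02 and 1.79), *BGLU* Glyma15g42590 (-5.32 and 2.41), *P5CS2* Glyma18g03830 (-3.40 and 1.26) and *FAD2* Glyma17g34640 (-2.87 and 1.40). Higher in NaCl+Mt:Mt and lower in NaCl:H2O were *GAPC1* (2.77 and -3.99), *ATBETAFRUCT4* Glyma17g14750 (2.20 and -2.46), *PFK* (2.58 and -3.02), *GroES-like* Glyma01g28850 (2.23, and -6.31 ± 0.48 from the counts, as its RPKM was listed at 0 in NaCl) and *BcaT* (2.61, and at least 96.7-fold lower, with 2 reads in NaCl and 234 in H2O). Among the groups, the median of the light reaction was -1.17 in NaCl+Mt:Mt and 1.20 in NaCl:H2O, and that of the fatty acid loci -1.55 and 1.40. Only 6 of the 11 fatty acid loci were tested in NaCl:H2O, of which 4 were higher and 2 neither. Over all 11, log2 values there ran from -2.10 to 3.86, and the median from the counts was 1.15.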

How the results depend on the processing

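Requiring a 4-fold difference left 1449 transcripts higher and 4230 lower, and 9 instead of 17 loci of the pathway table were higher. With a filter of RPKM 5, 3022 transcripts were higher and 4495 lower. Over the other settings, 3418 to 5484 transcripts were higher and 6498 to 9670 lower. The excess of lower transcripts was smaller under other scalings, with 5360 higher and 7062 lower under TMM scaling. Under median-of-ratios scaling the numbers were 4964 and 7411. TMM scaling moved the median log2 of all tested transcripts from -0.12 to 0.04 and median-of-ratios scaling to -0.02, so log2 values lie up to 0.16 higher under them. The pathway loci called lower were then 152 and 156 of 211, the light reaction loci 12 and 13 of 23, and *rbcS* was no longer called. Of 250 values of named genes under 10 settings, none changed sign and 29 moved beyond the 95% counting interval, which is wider than the SE given above. The filters and the fold of 4 could not change a log2, and the pseudocounts could not change its sign. Only the other scalings, the recomputed RPKM and the other choice of transcript could have changed a sign. No paired analysis was possible because each condition has 1 library, and for the same reason no library could be left out. Lists by gene product were not run. Read depth limits the loci with few reads in NaCl+Mt, and no setting stands in for replicate libraries.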
